A study of Homo sapiens with 12 samples.

Results

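Mitosis, spindle and kinetochore genes were followed in C4.2B prostate cancer cells under a PI3K inhibitor, an EZH2 inhibitor, both or neither. The 60 genes were taken by symbol from 23228 gene symbols in the count data. The rule uses no measured value, though the members were chosen with earlier results of these data known. All 60 were found, all passed the filter on low counts, and they were read among 14189 tested genes. The lowest count of any of them in any library was 47.

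C4.2B is an established cell line of castration-resistant prostate cancer. PolyA RNA was sequenced from 12 libraries in 4 arms, with 3 replicates (A, B and C) each. All arms spent 24 hours in medium with 10% charcoal-stripped serum, which is poor in androgens. The DMSO arm received vehicle, the GDC arm 0.5 µM of GDC-0941 (an inhibitor of all class I PI3K isoforms), the GSK arm 5 µM of GSK126 (an inhibitor of the histone methyltransferase EZH2), and the COMBO arm 0.5 µM of GDC-0941 and 5 µM of GSK126. Cells of the GSK and COMBO arms had been exposed to GSK126 for 6 days beforehand, and the account of the RNA samples does not say what the other arms received in that time (DMSO in the study's growth assays), so the presence of GSK126 and the length of exposure to it cannot be told apart. The replicates were plates of 1 cell line seeded in triplicate, and p-values measure the spread between such plates.

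As background, a cell enters mitosis when CDK1 joined to a B-type cyclin is switched on by CDC25 phosphatases, with help from the kinases PLK1 and AURKA. Chromosomes condense, microtubules of the spindle attach to kinetochores built on centromeres, and the spindle checkpoint holds back the anaphase-promoting complex until every chromosome is attached. Transcripts of these genes are made mainly in G2 and early mitosis, under the MuvB complex with MYBL2 and FOXM1, and many of their promoters carry a short element near the start site called the cell cycle genes homology region (CHR). Such genes are therefore read as markers of the cycling share of a culture.

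The promoter letters are shown first, because the CHR is what many of these genes share beyond their function. RefSeq promoter windows (GRCh38.p14, 250 bases before to 50 after a start site) were matched for 52 of the 60 genes, in 66 windows. The most common CHR form, TTTGAA on either strand, lay in 39 of the 66 windows (59.1%), against 15.2% of all 35116 windows and 10.3% of 14246 windows of tested genes. CTTGAA lay in 6.06% of the windows, against 11.2% of all windows and 7.74% of windows of tested genes. TTCGAA lay in 7.58%, against 1.45% of all and 1.58% of tested genes' windows. At least 1 of these 3 forms was found in 68.2% of the windows, against 24.9% of all and 18.1% of tested genes' windows. CCAAT, the letters that the factor NF-Y binds, lay in 66.7%, against 34.6% of all and 34.3% of tested genes' windows. A tandem arrangement in which GCGG is followed after 5 bases by TTGAA (letters that overlap the CHR forms) lay in 8 windows of 7 genes, CCNA2, CDC25C, CDCA3, CDK1, CENPF, DLGAP5 and NUF2. That was 12.1% of the windows, against 0.179% of all and 0.239% of tested genes' windows. These matches are a description of letters, and no binding was measured here.

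The stretches below run 5′ to 3′ along the gene's strand from 90 bases before to 25 bases after the start site. Capitals mark GCGG and the hexamer after it in the first 5 sequences and the TTTGAA hexamers in the other 5. CDK1, CCNA2, CDC25C, CDCA3 and DLGAP5 are shown for the tandem arrangement, and PLK1, CCNB2, CDC20, CENPA and MKI67 as well-known members with the hexamer alone.
CDK1, chr10:60778388-60778502, plus strand: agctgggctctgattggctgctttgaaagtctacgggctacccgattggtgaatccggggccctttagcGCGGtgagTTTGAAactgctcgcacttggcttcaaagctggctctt
CCNA2, chr4:121823859-121823973, minus strand: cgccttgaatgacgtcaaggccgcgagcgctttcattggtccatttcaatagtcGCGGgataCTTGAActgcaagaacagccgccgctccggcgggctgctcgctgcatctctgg
CDC25C, chr5:138331780-138331894, minus strand: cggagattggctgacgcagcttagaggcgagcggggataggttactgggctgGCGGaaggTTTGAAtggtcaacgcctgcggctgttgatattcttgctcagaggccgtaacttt
CDCA3, chr12:6851262-6851376, minus strand: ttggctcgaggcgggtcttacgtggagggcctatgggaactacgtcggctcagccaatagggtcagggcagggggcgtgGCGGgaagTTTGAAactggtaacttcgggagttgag
DLGAP5, chr14:55191561-55191675, minus strand: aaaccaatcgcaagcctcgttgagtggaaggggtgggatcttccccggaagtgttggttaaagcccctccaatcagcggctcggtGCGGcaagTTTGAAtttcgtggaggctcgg
PLK1, chr16:23678799-23678913, plus strand: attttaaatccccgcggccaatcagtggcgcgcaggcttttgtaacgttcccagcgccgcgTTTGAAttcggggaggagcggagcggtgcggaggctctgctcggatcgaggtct
CCNB2, chr15:59105056-59105170, plus strand: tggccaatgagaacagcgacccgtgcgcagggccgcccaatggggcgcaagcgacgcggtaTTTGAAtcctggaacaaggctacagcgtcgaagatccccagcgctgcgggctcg
CDC20, chr1:43358891-43359005, plus strand: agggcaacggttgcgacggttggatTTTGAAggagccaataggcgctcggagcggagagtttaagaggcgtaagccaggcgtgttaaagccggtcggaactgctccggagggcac
CENPA, chr2:26785966-26786080, plus strand: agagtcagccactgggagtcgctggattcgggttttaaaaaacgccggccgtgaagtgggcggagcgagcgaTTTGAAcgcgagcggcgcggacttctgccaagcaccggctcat
MKI67, chr10:128126399-128126513, minus strand: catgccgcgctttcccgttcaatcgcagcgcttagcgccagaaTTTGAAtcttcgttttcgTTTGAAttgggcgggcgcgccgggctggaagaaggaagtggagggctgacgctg

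In these 10 sequences the first capital of the tandem or hexamer lay within 65 bases before the start site. They were chosen among stretches with the motif inside the span shown, so this closeness comes in part from the choice. The tandem began 9 bases after a start in NUF2, 33 in CENPF and 36 in another window of CDC25C, none of them shown. Windows of a gene can overlap, so the 51 TTTGAA hits in the members' windows were 49 distinct sites. Of these sites 34 (69.4%) began within 50 bases of a start site, against 28.2% of 1534 distinct sites in the windows of tested genes. The windows of AURKA, BIRC5, BUB3, CENPM, FOXM1, TPX2, TTK and UBE2C were not analysed here.

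**Figure D1:**
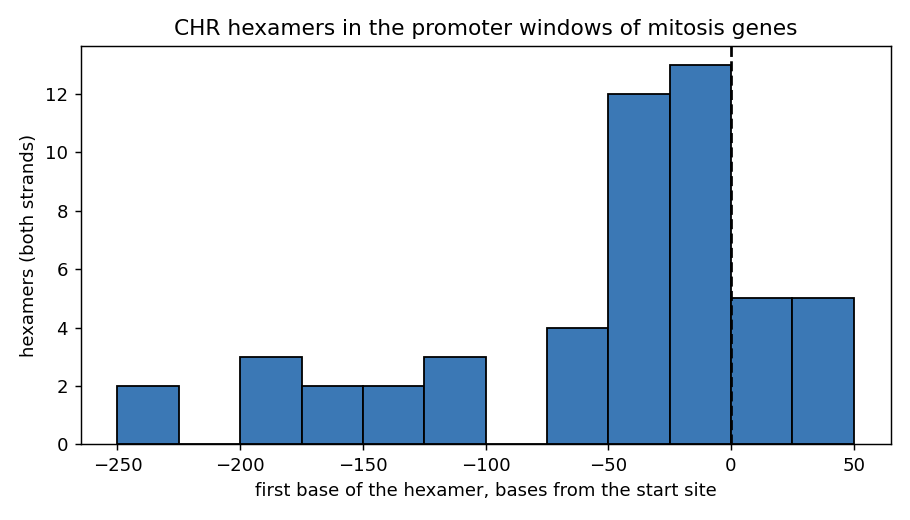
Number of TTTGAA hits (both strands, counted in each window) by the distance in bases of their first base from the start site, in bins of 25 bases, over the 66 promoter windows of 52 mitosis genes. The fullest bin, the 25 bases just before the start, holds 13 of the 51 hits, and the bin before it 12.

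Library size ranged from 8785218 to 44437751 counts in genes, and a count of 0 would allow 3 counts, or 0.0722 to 0.330 CPM. CPM here are counts over the library total in units of 1e6 reads, scaled by TMM factors of 0.932 to 1.09. The prostate luminal marker KLK3 was present in all libraries, at 539.6, 637 and 613 CPM under DMSO, 1164, 1212 and 1091 under GDC, 1455, 1225 and 1267 under GSK and 2011, 1824 and 1695 under COMBO. Of 9 luminal markers with KLK3 among them, 6 were called higher in COMBO than in DMSO, HOXB13 was called lower (-0.68), and KRT18 and FOXA1 did not pass. Against GSK, COMBO was higher in 6 and lower in HOXB13, KRT8 and KRT18. The sum of 10 markers of blood, endothelial, stromal and basal cells ran from 14.4 to 16.7 CPM under DMSO, 19.5 to 24.9 under GDC, 32.3 to 44.4 under GSK and 35.5 to 52.9 under COMBO, most of it COL1A1, and 2 of the 3 that could be tested were called higher in COMBO. Of these 10, PTPRC, CD3E, PECAM1, COL1A2, TP63, KRT5 and KRT14 were too low to be tested, and PTPRC, CD3E, PECAM1 and COL1A2 had no count under DMSO or GDC. Their part in the results was not tested. The share of reads that fell outside genes was 14.2% ± 0.481 under DMSO, 15.6% ± 0.268 under GDC, 18.8% ± 0.264 under GSK and 21.8% ± 1.07 under COMBO (mean and SD, n = 3). This share moved with the arms in the same order as the mitosis genes, and its part in the results was not tested.

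Mitosis transcripts fell in every inhibitor arm, least under GDC-0941, more under GSK126 and most under both. The 60 genes held 1.07% ± 0.0238 of gene counts under DMSO, 0.790% ± 0.00714 under GDC, 0.575% ± 0.0143 under GSK and 0.322% ± 0.00849 under COMBO (mean and SD, n = 3). The ranges of the arms did not overlap in this share. In bulk RNA, fewer cells in mitosis and less of these transcripts per cell cannot be told apart.

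Each comparison was then counted gene by gene (adjusted p under 0.05 in edgeR's quasi-likelihood test, with adjustment by Benjamini and Hochberg over all tested genes), beside the share of all tested genes called in the same direction. GDC lowered 58 of the 60 against DMSO, where 20.0% of all tested genes were lower, and the median log2 fold change was -0.47. GSK lowered 60 of 60, where the background was 35.7%, with a median of -1.08. COMBO lowered 60 of 60, where the background was 39.2%, with a median of -2.09, a level 23.4% of that in DMSO. Against GDC, COMBO lowered 60 of 60 (background 38.0%, median -1.61). Against GSK, COMBO lowered 59 of 60 (background 26.9%, median -0.99). None of the 60 was called higher in any of these comparisons at that threshold, nor by DESeq2, while 43.3% of all tested genes were higher in COMBO than in DMSO. The medians of all tested genes lay between -0.01 and 0.06 in these 5 comparisons.

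The falls differed in depth as well as in number. None of the 60 reached a log2 fold change of -1 (a halving) under GDC. Under GSK 35 of the 60 did so, against 5.86% of all tested genes, and under COMBO 59 did so, against 11.2%. In COMBO 35 of the 60 were at a log2 fold change of -2 or less, against 1.99% of all tested genes. In 55 of the 60 the libraries of the 4 arms did not overlap and stood in the order DMSO, GDC, GSK, COMBO from high to low, where 10.9% of all tested genes showed the same order. The exceptions were CDC20, CENPM, KIF15, ASPM and MKI67.

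**Figure D2:**
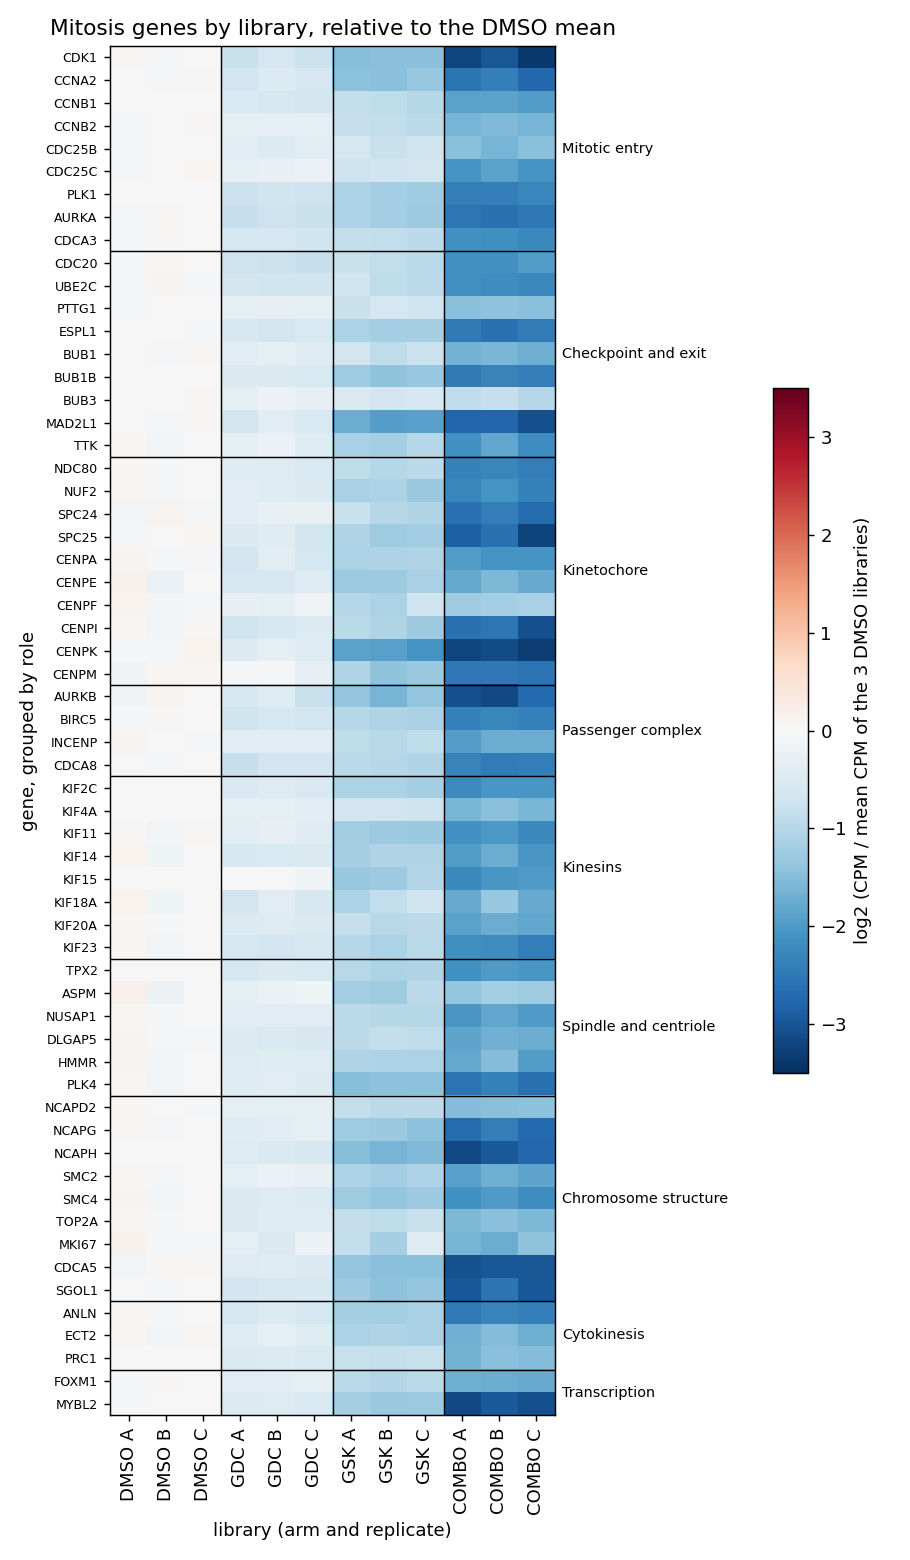
Each row is 1 of the 60 genes, grouped by role, and each column 1 of the 12 libraries, and colour gives log2 of the CPM over the mean CPM of the 3 DMSO libraries. Blue deepens from GDC to GSK to COMBO in nearly every row, with BUB3 palest in COMBO and CENPK and CDK1 among the darkest.

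Genes of mitotic entry were all lower under each inhibitor. CDK1 fell furthest among them in GSK and in COMBO, and AURKA in GDC. All 9 were called lower in GDC (median log2 fold change -0.58), in GSK (-0.91) and in COMBO (-2.18). CDK1 (chr10:60778331-60794852), the kinase that drives the cell into mitosis, was at 559, 523 and 536 CPM under DMSO, 314, 357 and 319 under GDC, 191, 197 and 197 under GSK and 58.3, 67.9 and 52.3 under COMBO. Every GDC library was below every DMSO library, and the COMBO libraries lay far below the GSK ones. COMBO left 11.1% of the DMSO level, a log2 fold change of -3.17 ± 0.072 (SE; edgeR adjusted p = 1.1e-18). CCNB1 (chr5:69167135-69178245), its cyclin B partner, was at 482, 482 and 484 CPM under DMSO, 336, 321 and 311 under GDC, 264, 263 and 244 under GSK and 132, 131 and 123 under COMBO. Its fall was shallower, to 26.7% of DMSO in COMBO (-1.90 ± 0.046; edgeR adjusted p = 3.1e-18), with arms that did not overlap. PLK1 (chr16:23677656-23690367), a kinase that promotes entry and spindle assembly, was at 243, 251 and 245 CPM under DMSO, 147, 152 and 148 under GDC, 116, 108 and 105 under GSK and 46.1, 47 and 50.5 under COMBO. AURKA (chr20:56369389-56392337), the centrosomal Aurora kinase, was at 169, 177 and 173 CPM under DMSO, 98.2, 105 and 101 under GDC, 81.3, 75.3 and 72 under GSK and 30, 28.1 and 30.4 under COMBO. The arms did not overlap for either kinase. AURKA and PLK1 were among the 3 members with the deepest falls under GDC, at -0.77 ± 0.050 and -0.73 ± 0.047 (edgeR adjusted p = 1.2e-09 for both). The other entry genes were CCNA2 (cyclin A), CCNB2 (another cyclin B), CDC25B and CDC25C (the phosphatases that switch CDK1 on) and CDCA3 (a factor that promotes degradation of the CDK1 inhibitor WEE1). Their COMBO log2 fold changes were -2.55, -1.59, -1.52, -1.99 and -2.18.

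The spindle checkpoint and the anaphase-promoting machinery fell as well. All 9 genes were lower in GDC, in GSK and in COMBO, with medians of -0.52, -0.86 and -2.06. CDC20 (chr1:43358981-43363203), the activator of the anaphase-promoting complex, was at 244, 272 and 258 CPM under DMSO, 156, 152 and 148 under GDC, 149.8, 143 and 135 under GSK and 60, 59.9 and 67.1 under COMBO. Its GDC and GSK libraries overlapped, and COMBO stood clear of both at 24% of DMSO (-2.06 ± 0.057; edgeR adjusted p = 1.7e-17). UBE2C (chr20:45812576-45816957), the ubiquitin-conjugating enzyme of that complex, was at 94.2, 104 and 91.6 CPM under DMSO, 61.9, 59.9 and 59.9 under GDC, 59, 52 and 50.7 under GSK and 22.2, 21.5 and 20.1 under COMBO. BUB1 (chr2:110637528-110678063), a checkpoint kinase, was at 150.0, 146 and 155 CPM under DMSO, 115, 118 and 112 under GDC, 96, 80.6 and 89.4 under GSK and 47.3, 49.8 and 46 under COMBO. UBE2C and BUB1 fell to 22.1% and 31.8% of DMSO in COMBO, without overlap of the arms. MAD2L1 (chr4:120055623-120066858), which sequesters CDC20 while kinetochores are unattached, was at 142, 134 and 144 CPM under DMSO, 89.7, 106 and 97.3 under GDC, 42.3, 36.5 and 37.3 under GSK and 20.6, 20.4 and 16.7 under COMBO. Its fall under GSK was among the 3 deepest of the 60, -1.86 ± 0.074 (edgeR adjusted p = 2.0e-14). PTTG1 (chr5:160421855-160428739), the securin that restrains separase, was at 125, 128 and 129 CPM under DMSO, 102, 104 and 99.6 under GDC, 73.7, 84.8 and 78.7 under GSK and 46.1, 48.4 and 46.2 under COMBO. Its fall under GSK, -0.69 ± 0.052, was among the 3 smallest of the 60. The arms did not overlap for MAD2L1 or PTTG1.

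BUB3 (chr10:123154402-123170467), a checkpoint adaptor that docks BUB1 at kinetochores, changed least in COMBO. It was at 223, 225 and 232 CPM under DMSO, 181, 198 and 185 under GDC, 161, 146 and 149 under GSK and 122, 129 and 112 under COMBO. The arms did not overlap, yet COMBO still left 53.5% of DMSO (-0.90 ± 0.054; edgeR adjusted p = 3.9e-12), the only one of the 60 short of a halving. The remaining checkpoint and exit genes were BUB1B (the BUBR1 checkpoint protein), TTK (the MPS1 kinase) and ESPL1 (separase, which cuts cohesin), at -2.40, -2.01 and -2.52 in COMBO.

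Kinetochore and centromere genes held both some of the deepest and some of the shallowest falls. All 10 were lower in GSK (median -1.13) and COMBO (-2.45), and 9 of 10 in GDC (-0.45). NDC80 (chr18:2571557-2616635), a subunit of the complex that grips microtubule ends, was at 121, 113 and 115 CPM under DMSO, 85.8, 85.4 and 80.7 under GDC, 62.4, 58.5 and 61.1 under GSK and 22.4, 23.7 and 21.5 under COMBO. SPC24 (chr19:11131520-11155807), a subunit of the same complex, was at 26.5, 31.3 and 27.6 CPM under DMSO, 21.7, 23.7 and 23.7 under GDC, 16.5, 14.4 and 13.8 under GSK and 4.7, 5.28 and 4.37 under COMBO. SPC25 (chr2:168834132-168913371), the partner of SPC24, was at 38.9, 39.4 and 42.1 CPM under DMSO, 28.2, 30.1 and 26 under GDC, 19.3, 16.8 and 17.4 under GSK and 5.52, 6.57 and 4.22 under COMBO. The remaining subunit, NUF2, was at -2.22 in COMBO, so all 4 subunits of the NDC80 complex fell, by log2 fold changes of -2.35 for NDC80, -2.56 for SPC24 and -2.85 for SPC25. CENPA (chr2:26764289-26801067), the histone H3 variant that marks centromeres, was at 52.9, 48.2 and 48.8 CPM under DMSO, 31.3, 37.6 and 32.5 under GDC, 23.1, 23.8 and 24.1 under GSK and 12.8, 11.8 and 11.9 under COMBO. Its arms did not overlap, and COMBO left 24.5% of DMSO.

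CENPK (chr5:65517766-65563168), of the inner kinetochore, had the deepest fall of all 60 in GSK and in COMBO. It was at 32.4, 33 and 37.2 CPM under DMSO, 24.7, 27.6 and 24.8 under GDC, 9.34, 9.25 and 7.97 under GSK and 3.66, 3.91 and 3.42 under COMBO. The 4 arms did not overlap, and the COMBO fall was -3.22 ± 0.099 (edgeR adjusted p = 9.6e-17), to 10.7% of DMSO. CENPM (chr22:41938737-41947152), also of the inner kinetochore, was at 36.5, 41.8 and 41.6 CPM under DMSO, 39.2, 38.4 and 32.5 under GDC, 19.3, 15 and 16.2 under GSK and 7.02, 7.06 and 6.7 under COMBO. Its GDC libraries overlapped those of DMSO and the change did not pass the test (-0.14 ± 0.080, edgeR adjusted p = 0.17), though it did without DMSO A (-0.23, adjusted p = 0.036) and when low genes were kept in the fit (-0.21, 0.029). Its COMBO log2 fold change was -2.54 ± 0.098. CENPI, of the inner kinetochore too, was at -2.68 in COMBO. The large outer proteins CENPE and CENPF are given with the long transcripts.

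The chromosomal passenger complex, which corrects wrong attachments and then guides cytokinesis, fell in each arm. All 4 genes were lower in every arm, with medians of -0.62 in GDC, -1.03 in GSK and -2.37 in COMBO. AURKB (chr17:8204733-8210600), its kinase, was at 45.8, 53 and 49.5 CPM under DMSO, 33.3, 37.1 and 29 under GDC, 19.3, 16.1 and 18.9 under GSK and 5.86, 5.55 and 7.43 under COMBO. It fell to 12.4% of DMSO in COMBO (-3.01 ± 0.11; edgeR adjusted p = 1.0e-15). BIRC5 (chr17:78214186-78225636), or survivin, was at 223, 239 and 233 CPM under DMSO, 143, 151 and 147 under GDC, 116, 112 and 105 under GSK and 45.1, 48 and 44.7 under COMBO. Its arms did not overlap and COMBO left 19.8% of DMSO. The scaffold INCENP and the borealin gene CDCA8 were at -1.79 and -2.40 in COMBO.

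Mitotic kinesins, the motors that push, slide and shorten spindle microtubules, fell with 1 exception, KIF15 under GDC. All 8 were called lower in GSK (median -1.04) and COMBO (-1.99), and 7 of 8 in GDC (-0.49). KIF11 (chr10:92574105-92655395), the Eg5 motor that separates spindle poles, was at 166, 153 and 167 CPM under DMSO, 122, 132 and 119.6 under GDC, 69.6, 67 and 66.1 under GSK and 37, 40.1 and 34.2 under COMBO. KIF20A (chr5:138178719-138187723), a motor of the central spindle, was at 212, 204 and 208 CPM under DMSO, 150.3, 153 and 147 under GDC, 119, 106 and 109.9 under GSK and 57, 62.3 and 58.9 under COMBO. COMBO left 23% of KIF11 and 28.6% of KIF20A, without overlap with any other arm. KIF15 (chr3:44761721-44873376), which can stand in for KIF11, was at 38.7, 38 and 39.2 CPM under DMSO, 38.5, 38.6 and 35.3 under GDC, 15.5, 15.9 and 19 under GSK and 8.13, 9.36 and 9.69 under COMBO. It was the member with the smallest change under GDC (-0.05 ± 0.070, edgeR adjusted p = 0.63), its GDC and DMSO libraries overlapped, while the step from GSK to COMBO was -0.90 ± 0.097. KIF4A (chrX:70290104-70420886), a chromosome-bound motor, was at 123, 126 and 127 CPM under DMSO, 100.2, 98.4 and 96.6 under GDC, 79.4, 78.3 and 75.8 under GSK and 41.5, 45.9 and 41.1 under COMBO, and its fall under GSK (-0.69 ± 0.050) was among the 3 smallest. KIF2C, KIF14, KIF18A and KIF23 were at -2.10, -1.88, -1.56 and -2.22 in COMBO.

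Spindle and centriole genes fell in each arm. All 6 were lower in GDC, GSK and COMBO, with medians of -0.43, -1.06 and -1.84, and 5 of 6 were lower in COMBO than in GSK. TPX2 (chr20:31739271-31801805), which activates AURKA and nucleates microtubules, was at 429, 444 and 438 CPM under DMSO, 292, 309 and 300.4 under GDC, 221, 204 and 212 under GSK and 100.3, 110.0 and 107 under COMBO. Its arms did not overlap, and COMBO left 24.2% of DMSO. NUSAP1, DLGAP5 and HMMR, which bind or bundle spindle microtubules, were at -1.94, -1.75 and -1.73 in COMBO, and PLK4, the kinase that starts centriole duplication, at -2.50. ASPM, the remaining gene, is given with the long transcripts, as is MKI67 of the next group.

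Genes of chromosome structure fell too, from -1.47 for the condensin gene NCAPD2 to -3.01 for CDCA5 in COMBO. All 9 were lower in each arm, with medians of -0.46 in GDC, -1.30 in GSK and -2.09 in COMBO. TOP2A (chr17:40388525-40417896), the topoisomerase that untangles sister chromatids, was at 304, 279 and 290.4 CPM under DMSO, 204, 218 and 212 under GDC, 164, 157 and 169 under GSK and 97.6, 106 and 98.5 under COMBO, and COMBO left 34.7% of DMSO. NCAPH (chr2:96335766-96377091), a condensin subunit, was at 139, 142 and 142 CPM under DMSO, 104, 100.3 and 95.6 under GDC, 50.1, 45.8 and 48.3 under GSK and 15.8, 18.5 and 21 under COMBO. Its fall under GSK was among the 3 deepest (-1.56 ± 0.065; edgeR adjusted p = 4.0e-14). CDCA5 (chr11:65066300-65084164), or sororin, which stabilizes cohesin, was at 125, 139 and 138 CPM under DMSO, 97.1, 99.3 and 94.4 under GDC, 51.8, 48.3 and 49 under GSK and 16.1, 17 and 16.7 under COMBO. Its COMBO fall was -3.01 ± 0.059 (edgeR adjusted p = 1.9e-19), to 12.4% of DMSO. SGOL1, which shields centromeric cohesin, was at -2.79, and the condensin genes NCAPG, SMC2 and SMC4 were at -2.58, -1.81 and -2.09.

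The cytokinesis genes ANLN, ECT2 and PRC1 were called lower in each arm. ANLN (chr7:36389821-36453791), the scaffold of the contractile ring, was at 301, 277 and 292 CPM under DMSO, 188, 209.8 and 189 under GDC, 129.8, 126 and 132 under GSK and 52.5, 57.8 and 55.2 under COMBO. PRC1 (chr15:90966040-90995629), which bundles the central spindle, was at 258, 261 and 256 CPM under DMSO, 183, 185 and 178 under GDC, 151, 147 and 150.0 under GSK and 82.6, 94.6 and 91 under COMBO. The arms did not overlap for either gene. COMBO left 19.1% of ANLN, 34.6% of PRC1 and 32.3% of ECT2, the activator of RHOA at the division plane.

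Both transcription factors of the list, which themselves drive genes of G2 and mitosis, were lower in each arm. FOXM1 (chr12:2857680-2877174) was at 286, 299 and 289.6 CPM under DMSO, 225, 225 and 234 under GDC, 153, 144 and 151 under GSK and 88.5, 87.1 and 85.3 under COMBO, and COMBO left 29.8% (-1.74 ± 0.044; edgeR adjusted p = 4.8e-18). MYBL2 (chr20:43667019-43716495), or B-Myb, was at 293, 306 and 302 CPM under DMSO, 216, 221 and 207 under GDC, 134, 122 and 126 under GSK and 33.4, 39.2 and 35.6 under COMBO. The GSK libraries of MYBL2 did not overlap those of GDC or COMBO, and COMBO left 12.1% of DMSO (-3.05 ± 0.058; edgeR adjusted p = 1.2e-19).

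**Figure D3:**
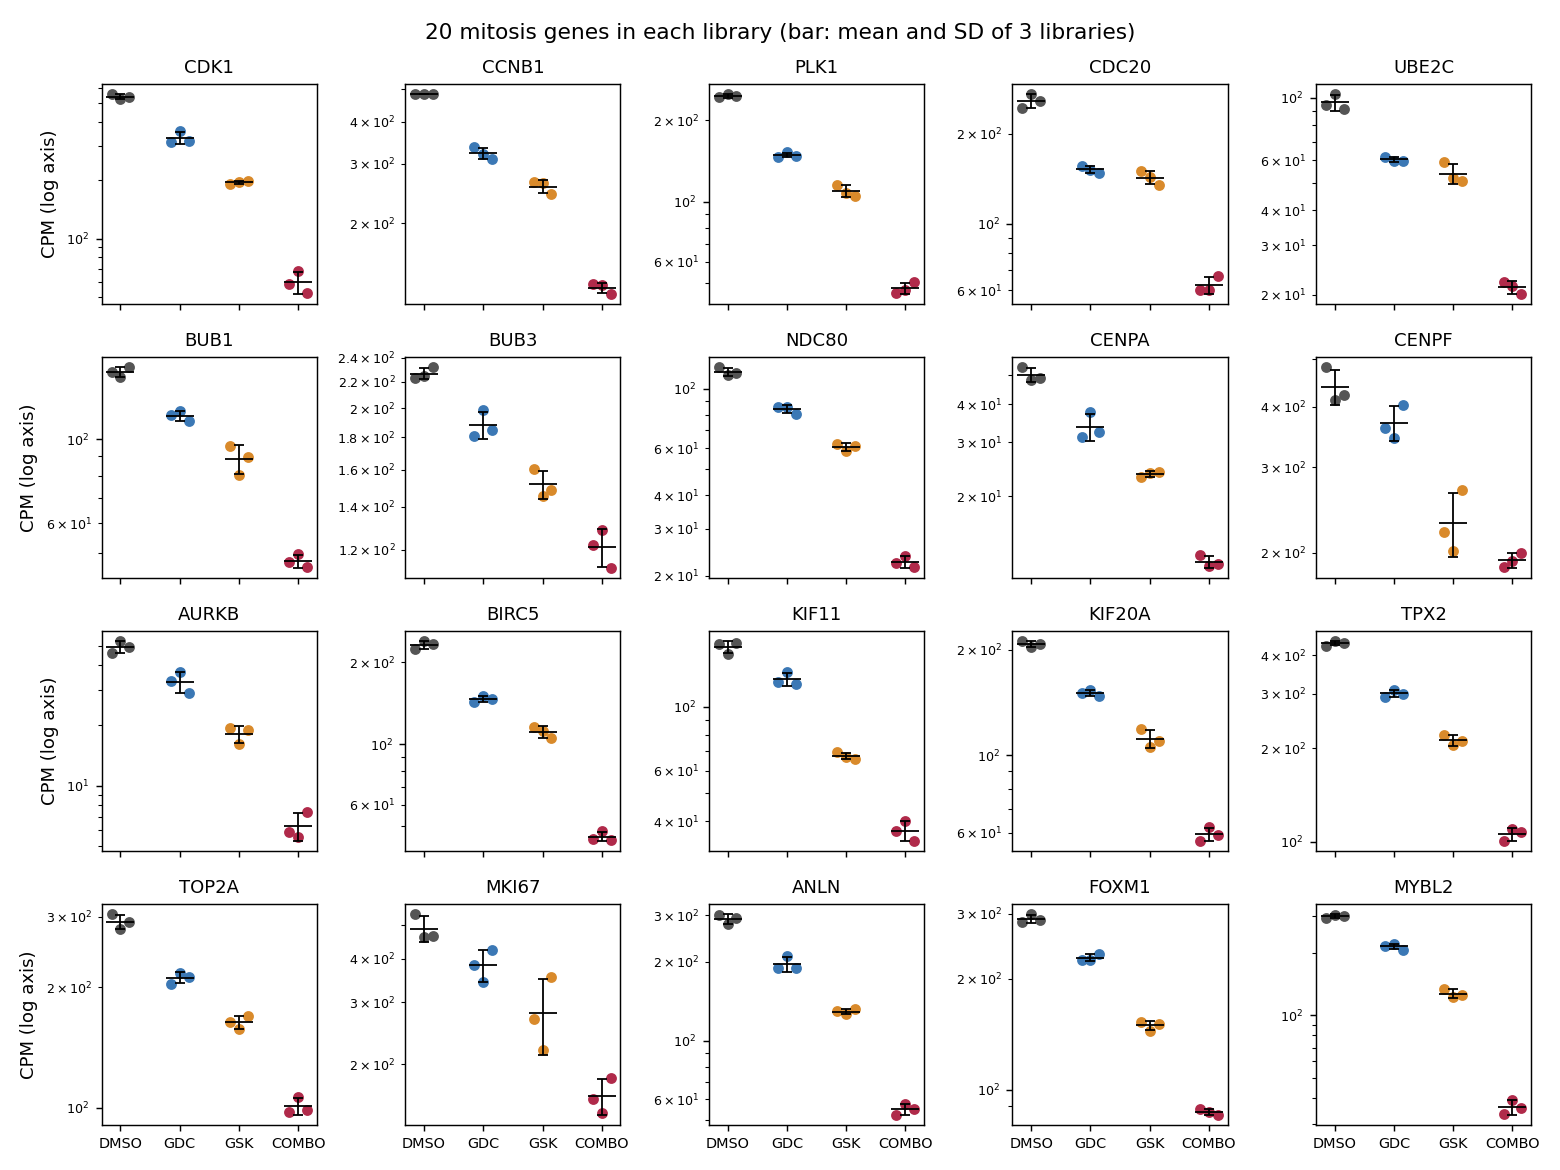
CPM (log axis) of 20 genes in each of the 12 libraries, 1 panel per gene. Points are libraries, horizontal bars the mean of 3 libraries and whiskers the SD. COMBO points lie below all DMSO points in every panel, and GSK points of MKI67 and CENPF are spread more widely than those of the other genes.

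Per kilobase of the MANE Select transcript, the level in DMSO was highest for CDK1 (286 CPM per kb), CCNB1 (238) and PTTG1 (178), and lowest for CENPI (7.28) and KIF15 (8.12). Across the 60 genes the log2 CPM in DMSO and the COMBO log2 fold change had a Pearson r of 0.34 and a Spearman rho of 0.33. These are correlations over genes read in the same libraries, which are not independent replicates.

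COMBO was then set against what GDC and GSK would give if their log2 changes simply added up. The difference from that sum, the interaction, was below 0 past the threshold for 51 of the 60 genes, where 16.5% of all tested genes were, and above 0 past it for none (edgeR quasi-likelihood test; DESeq2 called 50 below and 0 above). Above 0 past the threshold were 4.86% of all tested genes. The median of the 60 was -0.50, against -0.06 over all tested genes. MYBL2 had the most negative value, -1.33 ± 0.078 (edgeR adjusted p = 5.8e-10). Its level in COMBO was 12.1% of DMSO, where the product of the single-agent shares was 30.3%. SPC24 and SPC25 came next, at -1.30 ± 0.14 and -1.14 ± 0.15 (edgeR adjusted p = 1.8e-06 and 1.4e-05), followed by CENPM (-1.12 ± 0.14) and CDCA5 (-1.10 ± 0.083). For CDK1 the interaction was -1.00 ± 0.095 (edgeR adjusted p = 3.3e-07), with 11.1% left against a product of 22.2%.

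By role, the interaction was called below 0 for 9 of 9 entry genes (median -0.57), 8 of 9 checkpoint and exit genes (-0.50), 8 of 10 kinetochore genes (-0.90), 4 of 4 passenger genes (-0.66), 6 of 8 kinesins (-0.47), 4 of 6 spindle genes (-0.41), 8 of 9 genes of chromosome structure (-0.45), 2 of 3 cytokinesis genes (-0.23) and both transcription factors (-0.88). The kinetochore median was the most negative of the roles with more than 2 genes, and the difference between roles was not tested. The 9 genes that did not pass were BUB3, CENPE, CENPF, KIF14, KIF18A, ASPM, HMMR, MKI67 and ECT2. COMBO against GDC measures GSK126 in the presence of GDC-0941, and GSK against DMSO measures it alone. These comparisons share no library, and over the 60 genes their log2 fold changes had a Pearson r of 0.79 and a Spearman rho of 0.78, with genes read in the same libraries.

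Some of these calls changed when libraries were left out. Leaving out 1 library at a time gave 45 to 53 genes below 0. The median interaction of all tested genes, -0.06 in the main fit, moved as well. It lay between -0.063 (without GSK C) and 0.0085 (without DMSO A) in these refits, and the part of this shift in the calls was not tested. The weakest calls were those of TOP2A (-0.23 ± 0.070, edgeR adjusted p = 0.022), which was lost in 14 of 18 alternatives, and PRC1 (-0.23 ± 0.068, 0.019), lost in 11. TOP2A lost the call without any one of 11 libraries, in a range of -0.14 to -0.20, and kept it without COMBO B. CENPA (-0.41 ± 0.11, edgeR adjusted p = 0.011) lost it without DMSO B (-0.33), DMSO C (-0.33), GDC B (-0.25), GSK A (-0.36) or GSK B (-0.34), with adjusted p from 0.053 to 0.11.

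**Figure D4:**
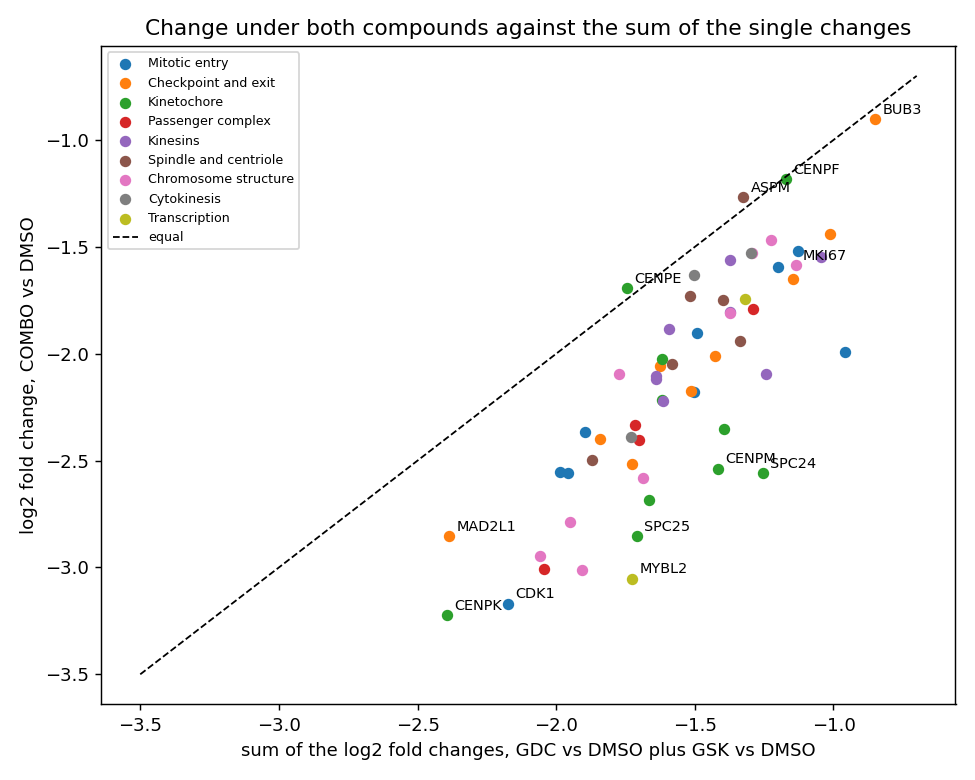
COMBO log2 fold change against DMSO (y axis) over the sum of the GDC and GSK log2 fold changes (x axis) for the 60 genes, coloured by role, and the dashed line marks equality. Points below the line fell further under both compounds than the sum, with MYBL2 and SPC24 farthest below it and ASPM and CENPE just above it.

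The members with the longest transcripts had smaller COMBO falls and interactions as a group, though not each of them. MANE Select transcripts ran from 715 to 12716 bases, and 6 were over 7000 bases, a limit chosen after the values were seen. CENPF (chr1:214603185-214664574), a large outer kinetochore protein with a transcript of 10290 bases, was at 482, 414 and 423 CPM under DMSO, 361, 345 and 404 under GDC, 221, 202 and 269 under GSK and 187, 193 and 200.3 under COMBO. COMBO left 44%, a fall among the 3 smallest, and the step from GSK to COMBO was -0.26 ± 0.082 (edgeR adjusted p = 0.015). That step did not pass without GSK C (-0.14, adjusted p = 0.13) or COMBO A (-0.20, adjusted p = 0.091), nor by DESeq2. CENPE (chr4:103105349-103198445), a kinetochore motor with 8541 bases, was at 141, 111 and 129 CPM under DMSO, 83.5, 84.9 and 92.8 under GDC, 52.5, 52.8 and 58.2 under GSK and 36.6, 42.4 and 37.4 under COMBO. ASPM (chr1:197084121-197146694), a spindle pole protein with 10863 bases, was at 157, 120.4 and 139 CPM under DMSO, 111, 117 and 126 under GDC, 60.5, 58.3 and 74.1 under GSK and 53.1, 60.6 and 58.2 under COMBO. GSK and COMBO libraries of ASPM overlapped and did not differ past the threshold (-0.17 ± 0.095, edgeR adjusted p = 0.16). The GDC change of ASPM (-0.22 ± 0.085, edgeR adjusted p = 0.041) did not pass without DMSO A (-0.18), DMSO C (-0.25) or GDC A (-0.22), with library totals (-0.19), or without both DMSO A and GSK C (-0.14). MKI67 (chr10:128096659-128126423), the Ki-67 protein used as a proliferation marker, with 12716 bases, was at 536, 463 and 463 CPM under DMSO, 383, 343 and 425 under GDC, 269, 219 and 354 under GSK and 159, 145 and 183 under COMBO. Its GSK C library reached into the GDC range. The GDC change of MKI67 (-0.34 ± 0.12, edgeR adjusted p = 0.025) did not pass without DMSO A (-0.31) or GDC B (-0.31), nor by DESeq2. Its interaction (-0.45 ± 0.17, edgeR adjusted p = 0.063) lay near the median of the 60 (-0.50) and passed without GSK B (-0.54) or COMBO C (-0.53).

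None of the 6 (BUB3, CENPE, CENPF, KIF14, ASPM and MKI67) was called in the interaction, and 51 of the 54 shorter members were. Their median interaction was -0.03 against -0.57, and their median COMBO fall -1.43 against -2.15. Under GSK the medians were closer, -1.00 against -1.08. This contrast is a description, since the length limit followed the values, and long transcripts outside the 60 were not compared. The next longest members, just under the limit, did not share the small interactions as a group. They were ESPL1 (6618 bases, -0.79), NCAPH (6030, -0.89), SMC2 (5928, -0.43), TOP2A (5695, -0.23) and CENPI (5584, -1.02). Across the 60 genes, log2 transcript length and the interaction had a Pearson r of 0.44 and a Spearman rho of 0.40, and log2 CPM in DMSO and the interaction a Pearson r of 0.47 and a Spearman rho of 0.45. Libraries also differed by length. GSK C exceeded the mean of GSK A and B by a median of 0.23 (log2) in the 6 and differed by -0.02 in the other 54. DMSO A exceeded DMSO B and C by 0.21 in the 6 and by 0.02 in the other 54. The part of these library differences in the results was not tested beyond leaving both libraries out, which gave 52 genes below 0 in the interaction.

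**Figure D5:**
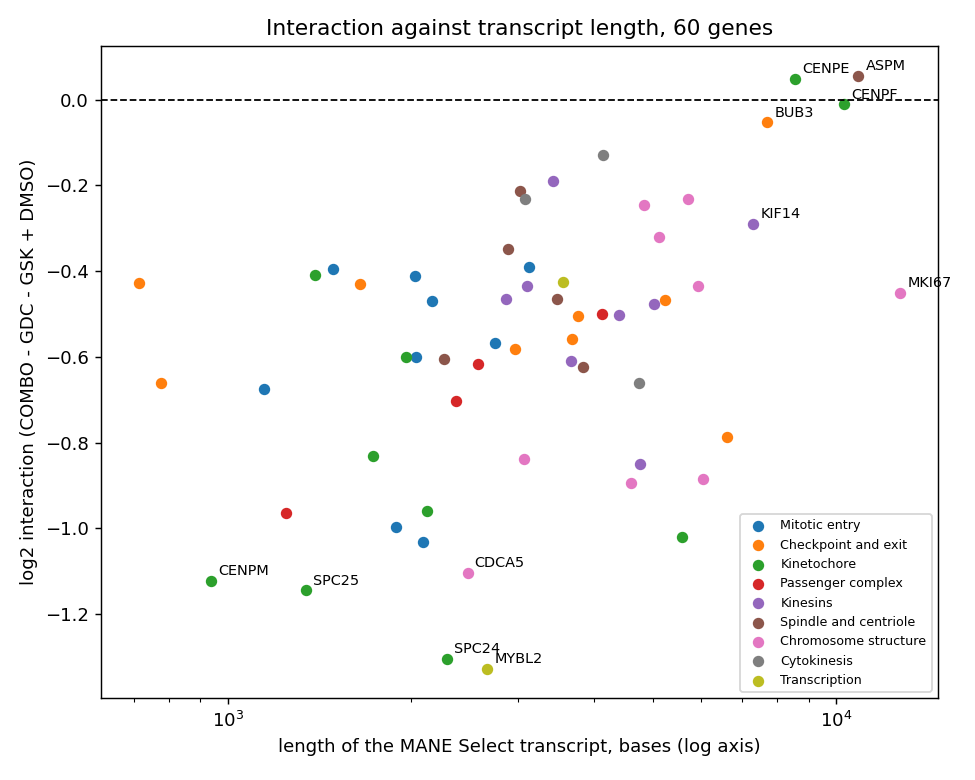
Log2 interaction (y axis) against the length of the MANE Select transcript in bases (log x axis) for the 60 genes, coloured by role, and the dashed line marks 0. The 6 transcripts over 7000 bases lie at -0.45 or above, while MYBL2, SPC24, SPC25 and CENPM, all shorter than the median length of 3083.5 bases, lie lowest.

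Promoter letters and the size of the fall were set side by side. In COMBO the 36 genes with TTTGAA had a median log2 fold change of -2.04 and the 16 without it -2.56. With any of the 3 CHR forms the 42 genes were at -2.04, and the 10 without at -2.62. The 7 genes with the tandem arrangement were at -2.18 and the other 45 at -2.09. Genes with and without these letters thus all fell, and the difference between them was not tested.

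Most other genes of the same machinery, listed with earlier results of these data known, were lower in COMBO too. Of 98 further mitosis genes, 89 were lower and 4 higher in COMBO than in DMSO (median -1.56). Of all tested genes, 39.2% were lower and 43.3% higher in that comparison, the background for each list below. Of 29 other kinetochore genes 27 were lower and 0 higher (median -1.85). SKA3 and SKA1, of the complex that couples kinetochores to microtubules, fell most, at -2.81 and -2.78. CENPT and CENPC1, which link kinetochores to centromeric chromatin, had values of 0.28 ± 0.13 and 0.11 ± 0.10 that did not pass (edgeR adjusted p = 0.053 and 0.35). Of 28 other spindle genes 24 were lower and 3 higher (median -1.68). TUBG1, gamma-tubulin, was at -3.13 ± 0.059 and the kinesin KIF18B at -2.35. KIF13B, a kinesin of cargo transport, rose by 1.94 ± 0.075 and NUMA1, a spindle pole protein that is also a nuclear matrix component, by 0.98 ± 0.043 (edgeR adjusted p = 3.4e-15 and 2.4e-14). KIF3B, another transport kinesin, named here after its value was seen, was the third of the higher genes, at 0.25 ± 0.041 (edgeR adjusted p = 1.2e-05).

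Of 16 other cohesin and chromosome genes 15 were lower and 1 higher (background 39.2% and 43.3%, median -0.96). ESCO2, the acetyltransferase that fixes cohesin in S phase, was at -3.01 ± 0.078, and CDCA2, a phosphatase targeting factor, was at -2.59. STAG2, a core cohesin subunit, rose slightly (0.19 ± 0.060, edgeR adjusted p = 0.0064), and TOP2B, the isoform of TOP2A that non-dividing cells also hold, was at -0.25. Of 15 subunits and partners of the anaphase-promoting complex 14 were lower and 0 higher (median -0.76). FBXO5, its inhibitor in interphase, and UBE2S, its chain-elongating enzyme, were at -2.36 and -2.05. The core subunit ANAPC2 did not pass (-0.10 ± 0.067, edgeR adjusted p = 0.19), and the G1 activator FZR1 was at -0.30. Of 10 other entry regulators 9 were lower and 0 higher (median -2.01). CDC25A and PKMYT1, an activating phosphatase and an inhibitory kinase of CDK1, were at -3.53 and -3.36. CCNH was at -0.54, and its partner CDK7 did not pass (-0.04 ± 0.062, edgeR adjusted p = 0.51). The interaction was called below 0 for 49 of the 98 further genes and above 0 for 3 (median -0.28). Of all tested genes, 16.5% were below and 4.86% above. Below 0 were 15 of 29 kinetochore, 18 of 28 spindle and 7 of 10 entry genes. Among cohesin and chromosome genes 6 of 16 were below 0 and 3 above (median -0.07). In the anaphase-promoting complex list 3 of 15 were below 0 (median -0.09).

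The regulators that bind such promoters were mixed. Of 28 genes of the MuvB, RB, E2F, NF-Y and FOXO families and their partners, 19 were lower and 7 higher in COMBO (median -0.65). The background was 39.2% lower and 43.3% higher. E2F2 and E2F8 fell most, with log2 fold changes of -3.92 ± 0.14 and -3.71 ± 0.096 (edgeR adjusted p = 8.0e-16 and 7.6e-18). FOXO3 and FOXO4, factors that PI3K signalling holds out of the nucleus, rose by 2.07 ± 0.058 and 1.70 ± 0.11 (edgeR adjusted p = 2.1e-17 and 1.7e-11). Both were called higher under each compound alone, FOXO3 by 0.54 in GDC and 1.38 in GSK, and FOXO4 by 0.82 and 0.88. DNA replication genes, which peak earlier in the cycle, fell in 38 of 38 cases (background 39.2%). Their median was -2.65, against -2.09 for the mitosis genes. Their median interaction was -0.92, with 35 of 38 called below 0 (background 16.5%). MCM10 and CLSPN, an origin factor and a checkpoint adaptor, were lowest at -5.15 and -4.79, and LIG1 and POLE highest at -1.38 and -0.49. In GDC the order of the medians was the other way, -0.30 for replication and -0.47 for mitosis. The difference between these lists was not tested.

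Counting could blur some members. Whether strand was used is not given in the sources used here, and 18 of the 60 overlap another gene in GENCODE 44, among them CCNA2 with EXOSC9, PLK1 with ERN2, KIF20A with BRD8 and FOXM1 with ITFG2. For 16 of the 60 at least 1 pseudogene is annotated, as for UBE2C, CDC20 and MAD2L1, and PTTG1 and KIF4A have near-identical copies. Their values are uncertain to that extent.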

How the data were processed

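PolyA RNA of C4.2B cells was sequenced in 12 libraries, 3 for each of 4 arms. The authors aligned reads to hg38 with STAR and counted them per gene with HTSeq, and the values they deposited are raw counts for each gene symbol. Versions, annotation and strand setting are not given in the sources used here. Summary lines for reads outside genes, ambiguous or not counted held 23.7% to 33.7% of reads and were left out. A deposited table of normalized values, which the authors made with DESeq2, was not used here.

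Arms were taken from the sample titles. Counts were tested under R 4.3.3 with the quasi-likelihood functions of edgeR 4.0.16 (TMM, filterByExpr, 1 fit of 12 libraries without covariates, two-sided), with Benjamini-Hochberg adjustment over 14189 genes and a threshold of 0.05. SE is the absolute log2 fold change over the square root of F. The common biological coefficient of variation was 0.0499. Replicates differed by more than sampling noise (chi-square per degree of freedom 1.81 to 6.60), so each library counted as 1 replicate. Depth was 8785218 to 44437751 counts, and floors cover counting error only. Positions and lengths come from GENCODE 44 on hg38, promoter windows from RefSeq on GRCh38.p14, searched for the letters named in the report on both strands.

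Values of every library are given for the best-known genes of each role and for the 3 most negative and 3 most positive members of each comparison. Of the other lists, the 2 most negative and 2 most positive genes in COMBO are named. The members and lists were chosen with earlier results of these data known. Alternatives were DESeq2 1.42.0 in full, its size factors inside edgeR, scaling by library totals, all genes unfiltered, the compared arms alone, a replicate block, a minimum log2 change of 1 in size, refits that left out each library and, added after seeing the data, a fit without DMSO A and GSK C. The fitting code was tested on simulated data.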

Additional observations from a re-analysis of the deposited data

Results flagged for a closer look

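The response to GSK126 differed with GDC-0941 present, by the interaction term of the edgeR quasi-likelihood fit, in 51 of the 60 genes, all below 0. Of all tested genes, 16.5% were called below 0 and 4.86% above 0. The log2 interaction values follow by role. Entry genes were at CDK1 -1.00, CCNA2 -0.57, CCNB1 -0.41, CCNB2 -0.40, CDC25B -0.39, CDC25C -1.03, PLK1 -0.47, AURKA -0.60, CDCA3 -0.68. Checkpoint and exit genes were at CDC20 -0.43, UBE2C -0.66, PTTG1 -0.43, ESPL1 -0.79, BUB1 -0.50, BUB1B -0.56, MAD2L1 -0.47, TTK -0.58. Kinetochore genes were at NDC80 -0.96, NUF2 -0.60, SPC24 -1.30, SPC25 -1.14, CENPA -0.41, CENPI -1.02, CENPK -0.83, CENPM -1.12. Passenger complex genes were at AURKB -0.97, BIRC5 -0.62, INCENP -0.50, CDCA8 -0.70. Kinesins were at KIF2C -0.46, KIF4A -0.50, KIF11 -0.48, KIF15 -0.85, KIF20A -0.43, KIF23 -0.61. Spindle and centriole genes were at TPX2 -0.46, NUSAP1 -0.60, DLGAP5 -0.35, PLK4 -0.62. Genes of chromosome structure were at NCAPD2 -0.25, NCAPG -0.89, NCAPH -0.89, SMC2 -0.43, SMC4 -0.32, TOP2A -0.23, CDCA5 -1.10, SGOL1 -0.84. Cytokinesis genes were at ANLN -0.66, PRC1 -0.23. The transcription factors were at FOXM1 -0.42, MYBL2 -1.33.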

How the results depend on the processing

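With library totals in place of TMM, the median of all genes moved up by 0.21 in COMBO against DMSO (lower and higher calls 30.6% and 52.7%, against 39.2% and 43.3%), by 0.15 in GSK and by 0.17 in COMBO against GDC, and the members' median in COMBO was -1.89. The number of lowered members stayed at 57 to 59 in GDC, 60 in GSK, 60 in COMBO, 60 in COMBO against GDC, 58 or 59 in COMBO against GSK and 45 to 53 in the interaction over all refits, and 0 members were higher. The other mitosis genes called in COMBO numbered 92 to 95. With a minimum log2 change of 1 in size there were 0 members in GDC, 35 in GSK, 29 in COMBO against GSK and 7 in the interaction. The sign of the interaction turned for 3 genes that passed no test. BUB3 was at 0.042 with no filter and from -0.093 to 0.062 without single libraries. CENPE was at -0.020 without COMBO B, in a range up to 0.198. CENPF was at 0.031 with DESeq2 size factors, 0.0090 with library totals, 0.082 with no filter, 0.034 by DESeq2, 1.6e-05 with the replicate block, 0.044 without DMSO A and GSK C (chosen after seeing the data), and from -0.033 to 0.118 without single libraries. The median interaction of all genes fitted moved up by 0.042 with DESeq2 size factors, 0.019 with library totals, 0.112 with no filter and 0.030 by DESeq2. It moved by -0.0008 with the replicate block and by -0.005 without DMSO A and GSK C. The cause of the sign changes was not tested. The sources used here do not say whether replicate letters pair the samples. Correlations between arms ran from -0.084 to 0.188 for the same letter (median -0.022) and from -0.146 to 0.104 for different letters (median -0.0095). Between GDC and COMBO the same-letter values were 0.116 (A), 0.188 (B) and 0.073 (C), and those of different letters ran from -0.146 to 0.045. The replicate block gave 52 genes below 0 in the interaction and the same counts as without it elsewhere. Calls of the interaction were lost in at least 1 refit for TOP2A, PRC1, NCAPD2, CENPA, SMC4, MAD2L1 and DLGAP5, and gained for KIF14, HMMR and MKI67. A fit of the compared arms alone does not exist for the interaction. The lowest count of any of these genes in any library was 47, and the part of depth in the results was not tested.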
